A study of Mus musculus with 137 samples.

Results

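Crypt tissue of the duodenum was compared between mice that drank water with 5 ppm hexavalent chromium, Cr(VI), and mice that drank tap water, each for 90 days (called day 91). The comparison held 10 of the 137 samples of the series, chosen by their labels: 5 libraries of 5 ppm (mice 241, 243, 244, 245 and 246) and 5 control libraries (mice 3, 5, 6, 7 and 8), with 1 library per mouse. All were wildtype female B6C3F1 mice, and Cr(VI) was given as sodium dichromate dihydrate. Formalin-fixed, paraffin-embedded duodenal sections had the villus removed, and the crypt tissue left on the slide was scraped for TempO-Seq, a targeted assay in which pairs of detector probes are ligated on the RNA and counted by sequencing. The whole series crossed crypt and villus with 7 concentrations and 2 exposure times. The question addressed was how far the crypt, which lies under the absorbing surface, responds at a concentration in the middle of the range studied.

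Crypts are the pits between villi where stem cells divide, Paneth cells release antimicrobial peptides, and new enterocytes, goblet cells and other cell types begin to mature before they move onto the villus. Plasma cells of the surrounding lamina propria make antibody that the crypt epithelium exports. Cr(VI) taken up from drinking water is reduced inside cells to trivalent chromium, a process known for oxidative stress, and high concentrations are known to injure villi and increase crypt proliferation in the mouse duodenum.

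Total counts ranged from 2717447 to 5136000 in the controls and from 3318037 to 6115411 at 5 ppm, and probes detected from 15603 to 20705 and from 18954 to 23083. Levels below are CPM, counts scaled to a common library size (TMM, trimmed mean of M values), and comparisons of levels were made within a gene. The compartment label held in all 10 libraries: Paneth cell markers summed to between 10022 and 27570 CPM, against 625 to 6959 CPM in the villus libraries of these mice, and villus enterocyte markers to between 34112 and 64204 CPM, against 76885 to 162385 CPM. Pancreatic RNA differed between libraries of both groups, and one control stood furthest apart. Markers of pancreatic acinar cells, the cells that make digestive enzymes, reached 283615 CPM in the crypt of mouse 5 and lay between 9603 and 50639 CPM in the other controls and between 9823 and 31567 CPM at 5 ppm, so counts below are also given without that library. The sum also counts Reg1, which was at 2662 to 7778 CPM over the 10 libraries. Cpa1, a digestive enzyme gene of the list, was at 1.45, 34373, 1.67, 4112 and 462 CPM in controls 3, 5, 6, 7 and 8. At 5 ppm Cpa1 was at 0, 1068, 2462, 985 and 1413 CPM in mice 241, 243, 244, 245 and 246. In bulk tissue, fewer cells of a type and less RNA per cell cannot be told apart.

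The difference of smallest p was in an antibody gene. Igkv8-18, a variable segment of the immunoglobulin kappa light chain that is joined to a J segment in developing B cells, was higher at 5 ppm and was the only gene past the threshold (adjusted p under 0.1) when all 137 libraries were fitted together with edgeR's quasi-likelihood test. It lies at chr6:70355852-70356445 on the plus strand of GRCm38 (mouse; GENCODE M21, biotype IG_V_gene). Its CPM was 0, 0, 2.97, 0 and 0 in controls 3, 5, 6, 7 and 8. At 5 ppm it was 25.5, 74.3, 81.8, 26.8 and 0 in mice 241, 243, 244, 245 and 246. Exposed mice 241 to 245 were above all controls, while mouse 246 was at 0 as 4 of the controls were, so the groups overlapped. The log2 fold change was 5.78 with an SE of 0.94 (edgeR's quasi-likelihood test, adjusted p = 9.0e-05), and 1 of 26365 probes tested, 0.00379%, passed. Before adjustment 1988 probes had p under 0.05, which is 7.54% of those tested. Igkv8-18 still passed without any 1 of the 10 libraries, but not in DESeq2 (adjusted p = 0.28) or in the older form of edgeR's fit (adjusted p = 0.48).

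The sequence of Igkv8-18 is shown because a near copy of it moved with it. Of the kappa variable segments compared with it, Igkv8-26 (chr6:70193228-70193797, plus strand) was the closest, with 363 of 370 aligned coding bases identical. Igkv8-19 came next, with 322 of 365. Over the first 300 coding bases, taken from GENCODE M21 transcripts, they differed at 6 positions, which are in capitals:
Igkv8-18: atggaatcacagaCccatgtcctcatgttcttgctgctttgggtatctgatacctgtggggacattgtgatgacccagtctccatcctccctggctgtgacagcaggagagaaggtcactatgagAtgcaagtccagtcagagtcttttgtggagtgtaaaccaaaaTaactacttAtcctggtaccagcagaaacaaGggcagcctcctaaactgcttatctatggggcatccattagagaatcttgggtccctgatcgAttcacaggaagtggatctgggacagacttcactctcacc
Igkv8-26: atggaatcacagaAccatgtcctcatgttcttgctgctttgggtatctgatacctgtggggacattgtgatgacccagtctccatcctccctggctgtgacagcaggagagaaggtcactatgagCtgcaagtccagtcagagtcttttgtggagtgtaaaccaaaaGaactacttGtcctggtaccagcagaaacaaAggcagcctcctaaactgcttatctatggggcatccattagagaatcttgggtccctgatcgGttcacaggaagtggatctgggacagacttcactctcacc
Igkv8-26 was at 3.88, 1.64, 0, 0.385 and 0 CPM in the controls and at 10.3, 19.0, 22.6, 2.55 and 1.09 CPM at 5 ppm. The same 3 exposed mice (241, 243 and 244) were above all controls for Igkv8-26, and mice 245 and 246 lay within their range. Its log2 fold change was 3.32, with adjusted p = 0.48 by edgeR's quasi-likelihood test over all libraries. The probe sequences were not used here, and whether each probe reads 1 segment or both was not tested.

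**Figure D1:**
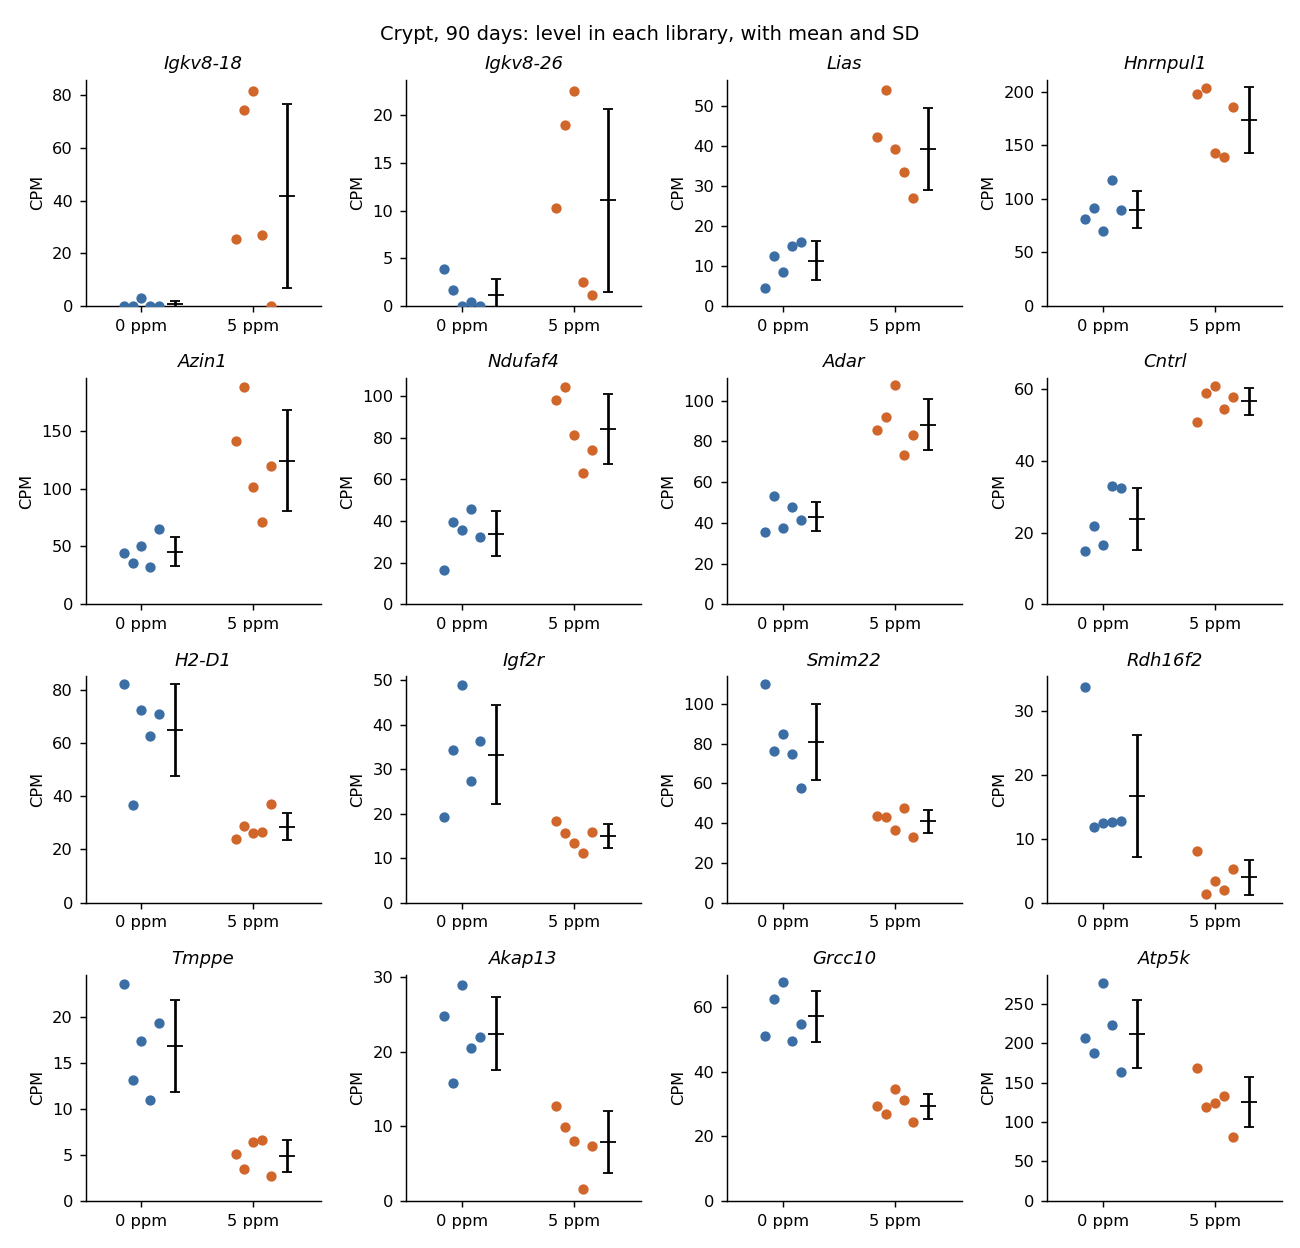
CPM (y axis, linear from 0) of 16 genes in each crypt library of 90 days at 0 ppm (blue, 5 mice) and 5 ppm (orange, 5 mice), with mean and SD (black). Igkv8-18 is at 0 in 4 controls and 1 exposed mouse, the genes from Lias to Cntrl are higher in every exposed library than in any control, and H2-D1 and Atp5k, lower on average, overlap between groups by a narrow margin.

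The number of genes past the threshold depended on which libraries were fitted together. When the 35 crypt libraries of 90 days (7 concentrations) were fitted alone, 980 genes passed, 618 higher and 367 lower at 5 ppm, where a gene could pass by any of its probes and in both directions. The median SE of a log2 fold change was 0.70 over the 26365 probes of the fit of all libraries. It was 0.39 over the 19166 probes tested in the fit of crypt libraries of 90 days. The sets of probes differ, so these medians are not of the same probes. For 1 probe in both fits, that of Adar, the SE was 0.28 and 0.20. With each gene read by its most abundant probe, 761 of 13546 genes passed, which is 5.62%, with 498 higher (3.68%) and 263 lower (1.94%). Of these 761 genes, 93.4% had an unadjusted p under 0.05 in the fit of all libraries. Among all 19020 genes of that fit, 1020 higher and 458 lower had such a p. Both fits compare the same 10 libraries, so this share is not a separate test of the 761 genes. The split of genes counted by any probe, 618 higher against 367 lower, moved with the scaling. With DESeq2 size factors in edgeR it was 496 against 472, and with an offset for transcript GC content 401 against 470. "Rose" and "fell" are used below for genes past the threshold in the fit of the 90-day crypt libraries, and apart from Igkv8-18 none of them passed in the fit of all libraries.

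That count also depended on single libraries. It was 254 without mouse 243, 334 without mouse 3, 407 without mouse 6 and 542 without mouse 244, and it was 1531 without mouse 5, 1570 without mouse 245 and 1684 without mouse 8. A rule without a fit gave 347 of 19020 genes, 1.82%, whose 5 exposed and 5 control libraries did not overlap in CPM, with 241 higher and 106 lower. Of the 761 genes called, 210 had groups without overlap.

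Of the genes that rose with groups that did not overlap, the 8 of smallest p over all libraries are described first. Lias encodes lipoic acid synthetase, a mitochondrial enzyme that makes the lipoyl cofactor of pyruvate dehydrogenase. Its CPM was 4.36, 12.6, 8.52, 15 and 16.1 in the controls and 42.3, 54.1, 39.1, 33.4 and 26.9 at 5 ppm. The lowest exposed library, mouse 246, was still above the highest control, mouse 8. The mean was 3.47-fold higher (log2 fold change 1.78 ± 0.28 SE, adjusted p = 0.0016 by edgeR's quasi-likelihood test in the 90-day crypt libraries, 0.35 over all libraries). A second, sparser Lias probe did not follow, with means of 8.43 CPM in controls and 4.14 CPM at 5 ppm (adjusted p = 0.23, edgeR, 90-day crypt libraries).

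Azin1, the antizyme inhibitor that protects ornithine decarboxylase and so favours polyamine synthesis, was at 44.6, 36.0, 50.2, 32.4 and 64.9 CPM in the controls. It was at 141, 188, 102, 71.1 and 119 CPM at 5 ppm, and its mean was 2.73-fold higher. Ndufaf4, an assembly factor of respiratory complex I, was at 16.5, 39.6, 35.8, 45.8 and 32.1 CPM in the controls and at 97.9, 104, 81.2, 62.9 and 74.3 CPM at 5 ppm. In both genes mouse 245 was the lowest of the exposed libraries and remained above every control. Impa1, an inositol monophosphatase, rose from 10.6 ± 2.44 to 30.7 ± 10.3 CPM (mean ± SD, n = 5 each here and below), and Ywhah, a 14-3-3 adaptor protein, from 30.4 ± 12.1 to 64.2 ± 10.1 CPM.

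Hnrnpul1, an RNA-binding protein of the nucleus, was at 80.8, 91.1, 70.2, 117 and 89.8 CPM in the controls and at 198, 203, 143, 139 and 186 CPM at 5 ppm. Adar, the enzyme that edits adenosine to inosine in double-stranded RNA, was at 35.4, 52.9, 37.6, 47.8 and 41.6 CPM in the controls and at 85.7, 91.8, 108, 73.4 and 83.0 CPM at 5 ppm. The means of both were close to doubled, 1.93-fold for Hnrnpul1 and 2.05-fold for Adar, with no overlap. Zfp236, a zinc finger protein, rose from 7.38 ± 3.77 to 21.1 ± 3.34 CPM.

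By p alone, the 90-day crypt fit added Cntrl, N4bp1 and Ccar1 to the genes that rose with the smallest p. Cntrl, the centrosomal protein centriolin, was at 14.8, 21.8, 16.5, 32.9 and 32.4 CPM in the controls and at 50.9, 58.8, 60.8, 54.5 and 57.7 CPM at 5 ppm. The exposed libraries lay close together and all controls lay below them. Ccar1, a coactivator linked to cell cycle and apoptosis, went from 66.8 ± 14.2 to 135 ± 34.8 CPM, and N4bp1, a ribonuclease that limits cytokine responses, from 29.8 ± 7.37 to 66.5 ± 19.7 CPM. Mouse 245 fell inside the control range for both Ccar1 (81.3 CPM) and N4bp1 (32.1 CPM). Among genes picked after their values were seen, the nuclear exporter Xpo1 rose from 68.5 ± 7.58 to 139 ± 36.5 CPM and the enterocyte transcription factor Hnf4g from 314 ± 54.7 to 691 ± 151 CPM, with no overlap between groups in either of them. Apc, which holds Wnt signalling in check, rose by its most abundant probe from 34.0 ± 10.5 to 64.5 ± 15.8 CPM. A second of its 3 probes rose from 17.3 to 31.3 CPM (adjusted p = 0.096, edgeR, 90-day crypt libraries). The third had means of 32.9 and 25.1 CPM and did not pass (adjusted p = 0.39, same test).

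**Figure D2:**
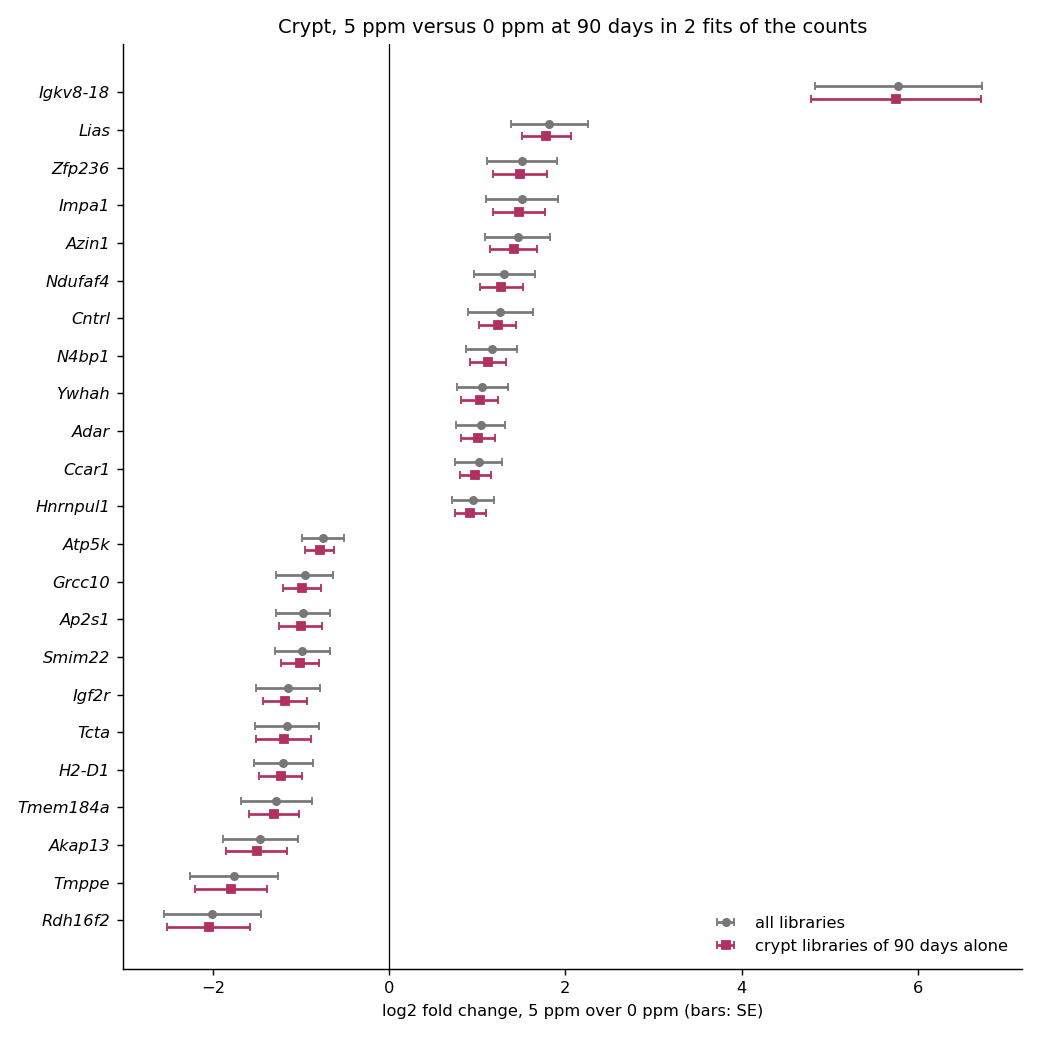
Log2 fold change of 23 genes at 5 ppm over 0 ppm (x axis; bars are SE) in the fit of all libraries (grey circles) and of the 90-day crypt libraries alone (red squares). The estimates nearly coincide, and the SE is smaller in the second fit for every gene drawn but Igkv8-18.

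The genes that fell with the smallest p included an antigen-presenting molecule and several membrane proteins. H2-D1 encodes a classical MHC class I heavy chain, which shows peptides from inside the cell to cytotoxic T cells. Its CPM was 82.0, 36.6, 72.3, 62.4 and 70.8 in the controls and 23.8, 28.6, 26.1, 26.5 and 37.0 at 5 ppm. Only control 5 (36.6) reached into the exposed range, whose highest library was mouse 246 (37.0). The mean was 2.28-fold lower (log2 fold change -1.23 ± 0.24 SE, adjusted p = 0.0080 by edgeR's quasi-likelihood test in the 90-day crypt libraries, 0.48 over all libraries), and a second H2-D1 probe also fell, from 25.9 to 13.0 CPM (adjusted p = 0.045, edgeR, 90-day crypt libraries).

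H2-K1, the other classical class I gene that was looked at after its values were seen, did not pass by its most abundant probe, with 422 ± 75.6 CPM in the controls and 503 ± 70.4 CPM at 5 ppm, although 1 of its 3 other probes fell, from 256 to 152 CPM (adjusted p = 0.013, edgeR, 90-day crypt libraries). The coding sequences of H2-D1 (chr17:35262730-35267499, plus strand) and H2-K1 (chr17:33996017-34000347, minus strand) had 985 of 1077 aligned bases identical. They are shown because probes of so similar a pair gave different values; in these 120 aligned coding bases (bases 10 to 129 of H2-D1 and 1 to 120 of H2-K1), from GENCODE M21 (GRCm38), 10 positions differ and are in capitals:
H2-D1: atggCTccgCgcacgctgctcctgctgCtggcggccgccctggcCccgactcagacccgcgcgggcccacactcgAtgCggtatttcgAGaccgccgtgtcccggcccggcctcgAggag
H2-K1: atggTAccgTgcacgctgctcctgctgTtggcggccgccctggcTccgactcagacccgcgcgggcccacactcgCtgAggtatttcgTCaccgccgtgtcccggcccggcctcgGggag
Tap2, a subunit of the peptide transporter that loads class I molecules, fell from 39.0 ± 15.7 to 17.4 ± 2.78 CPM, and the nonclassical class I gene H2-T3 from 236 ± 32.8 to 153 ± 18.4 CPM, both without overlap and both picked after their values were seen. The other H2-T3 probes, at 81.1 and 65.7 CPM and at 15.5 and 20.9 CPM (control and then 5 ppm), did not pass.

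Igf2r, the receptor that clears IGF2 and sorts lysosomal enzymes, was at 19.2, 34.4, 48.9, 27.3 and 36.4 CPM in the controls and at 18.3, 15.7, 13.4, 11.2 and 15.8 CPM at 5 ppm. The gap between the groups was narrow, set by control 3 and exposed mouse 241. Smim22, a small membrane protein, was at 110, 76.1, 84.7, 75.1 and 57.7 CPM in the controls and at 43.7, 43.1, 36.8, 47.9 and 32.9 CPM at 5 ppm, and Grcc10 fell 1.95-fold, from 57.1 ± 7.79 to 29.3 ± 3.90 CPM, in both cases with no overlap. Rdh16f2, of a retinol dehydrogenase family, was at 33.7, 11.7, 12.4, 12.5 and 12.8 CPM in the controls and at 8.06, 1.29, 3.31, 2.04 and 5.17 CPM at 5 ppm. Control 3 raised its mean, and the other 4 controls were still above every exposed library.

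The remaining genes of this rule fell by between 1.96-fold and 3.46-fold in mean CPM. They were the metallophosphoesterase Tmppe (16.9 ± 4.99 to 4.87 ± 1.75 CPM), the kinase anchor Akap13 (22.4 ± 4.88 to 7.89 ± 4.12 CPM), Tcta (36.7 ± 8.38 to 16.2 ± 4.48 CPM), the clathrin adaptor subunit Ap2s1 (48.2 ± 10.4 to 24.6 ± 3.68 CPM) and Tmem184a (28.5 ± 6.94 to 11.9 ± 3.58 CPM). Their adjusted p lay between 0.014 and 0.034 by edgeR's quasi-likelihood test in the 90-day crypt libraries and between 0.48 and 0.51 over all libraries. The other 3 probes of Tmem184a were near 2 to 9 CPM and showed no such difference, with log2 fold changes from -0.14 to 0.03.

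Functional gene lists were read by the number of members that passed in the 90-day crypt fit, beside 5.62% of all genes and a median log2 fold change over all genes of 0.04. Genes that passed were more abundant, with a median mean CPM of 55.0 for those that rose and 30.3 for those that fell. It was 13.8 over all tested genes, and the share of 5.62% was not matched to the abundance of a list. Of each list the 2 members of smallest p and the most abundant one were named by rule, and other members were chosen after their values were seen. Subunits of oxidative phosphorylation, the mitochondrial chain that makes ATP, had 11 of 71 members past the threshold (15.5%), 4 higher and 7 lower, with a list median of -0.07. Ndufc2 of complex I rose from 76.6 ± 18.9 to 173 ± 85.6 CPM, with mouse 245 (70.1 CPM) among the controls. Atp5k of ATP synthase fell from 211 ± 42.6 to 125 ± 31.6 CPM, with exposed mouse 241 (169 CPM) just above control 8 (164 CPM). Cox6a1, Cox6b1, Ndufb11, Ndufs6, Uqcr11 and Uqcrfs1 also fell, by 0.52 to 0.92 on the log2 scale, while Atp5e (0.73), Ndufa8 (0.71) and Sdha (0.51) rose. Both directions thus occurred within complexes I and V.

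Targets of NRF2, the transcription factor that answers oxidative and electrophilic stress, had 5 of 29 members past the threshold, 3 higher and 2 lower. Gsr, glutathione reductase, was at 478, 740, 598, 715 and 584 CPM in the controls and at 1429, 1550, 898, 459 and 888 CPM at 5 ppm. All exposed libraries but that of mouse 245, the lowest of all 10, were above the controls. A second Gsr probe did not follow, with means of 269 and 253 CPM (adjusted p = 0.77, edgeR, 90-day crypt libraries). Gpx2, a glutathione peroxidase, and the aldo-keto reductase Akr1b8 rose as well, with log2 fold changes of 1.17 and 1.08. Thioredoxin (Txn1) fell from 479 ± 160 to 280 ± 44.0 CPM and superoxide dismutase 1 (Sod1) fell with a log2 fold change of -0.91. The list median was 0.08. Among enzymes of glutathione conjugation 3 of 30 passed: Gsta2 rose (0.72), and Gstt1 (-0.84) and the aldehyde reductase Akr1a1 (-0.78) fell, the latter without overlap between groups.

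Genes of the unfolded protein response, which adjusts the endoplasmic reticulum to its load, had 5 of 29 past the threshold. Manf, a secreted stress factor, rose from 267 ± 62.4 to 441 ± 130 CPM and the co-chaperone Dnajb9 rose with a log2 fold change of 1.02. Pdia4, a disulfide isomerase, fell from 80.6 ± 19.7 to 46.2 ± 7.01 CPM without overlap, and Xbp1 (-0.65) and the asparagine synthetase gene Asns (-1.58) fell too. Hspa5, the main chaperone of that compartment and the most abundant member, was at 2372 CPM in controls and 2488 CPM at 5 ppm by its most abundant probe (log2 fold change 0.04 ± 0.17 SE, 90-day crypt fit). Its other 2 probes had means of 531 and 806 CPM and of 149 and 238 CPM (adjusted p = 0.15 each, edgeR, 90-day crypt libraries). In the hypoxia list 1 of 27 passed, the oxidase Ero1l, which rose from 220 ± 80.0 to 354 ± 91.2 CPM, and its second probe rose from 71.5 to 163 CPM (adjusted p = 0.0074, edgeR, 90-day crypt libraries).

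Of cytosolic ribosomal proteins 9 of 77 passed (11.7%), 4 higher and 5 lower. Rplp1 fell from 18.1 to 6.85 CPM, with control 8 (2.62 CPM) below every exposed library. Of translation initiation factors 5 of 52 passed (9.62%), 4 of them higher, and Eif1 rose from 239 ± 17.1 to 360 ± 50.2 CPM without overlap. Of mitochondrial ribosomal proteins 2 of 72 passed, Mrpl1 (54.9 ± 14.1 to 98.8 ± 25.1 CPM) and Mrps36, both higher. Of proteasome subunits 3 of 42 passed, and of splicing factors 0 of 51, a list in which edgeR gave 1 gene higher and 1 lower at an unadjusted p under 0.05 over all libraries.

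Lists tied to growth and genome maintenance are read against the 5.62% of all genes. In DNA replication 2 of 44 passed (4.55%): Mcm10 rose from 11.2 ± 5.49 to 28.7 ± 13.5 CPM and Orc6 from 39.5 ± 8.91 to 66.5 ± 14.4 CPM. In mitosis 1 of 36 passed (2.78%), the kinase Plk1 (42.8 ± 19.7 to 76.8 ± 19.1 CPM), whose other 2 probes had means of 25.5 and 18.7 CPM and of 17.3 and 13.7 CPM, each time control and then 5 ppm. Of Fanconi anemia and homologous recombination genes 0 of 32 passed, and of p53 targets and DNA damage response genes 0 of 32, with 1 higher and 2 lower members respectively at an unadjusted p under 0.05 by edgeR over all libraries. Fanci (14.7 ± 4.13 and 22 ± 5.02 CPM), Trp53 (86.7 ± 18.9 and 104 ± 10.1 CPM) and the hypoxia factor Hif1a (97.4 ± 22.4 and 109 ± 18.3 CPM) missed the threshold. Of 49 histone genes 4 passed (8.16%), all lower, among them Hist2h2ac (99.2 ± 41.8 to 56.0 ± 10.5 CPM). Their list median was -0.25.

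In the circadian clock list 3 of 17 passed, all higher: Nr1d2, the repressor Rev-erb beta, rose from 9.93 ± 4.82 to 26.7 ± 12.4 CPM, Clock from 86.9 ± 18.5 to 143 ± 29.7 CPM, and Bhlhe40 by a log2 fold change of 0.55. The hour of death was not among the labels used here, and its part in this was not tested. Among epithelial defence genes 3 of 15 passed. Reg3a, a secreted lectin, was at 59.2, 13.4, 19.6, 7.32 and 11.1 CPM in the controls and between 6.23 and 7.64 CPM at 5 ppm, so that it fell, with the highest exposed library just above the lowest control. The epithelial cytokine gene Tslp was at 0 in all controls and at 3.09, 1.51, 2.73, 3.06 and 2.72 CPM at 5 ppm, which was 18, 7, 14, 12 and 10 counts, and Il18 rose by 0.83 on the log2 scale. Chemokines and their receptors had 0 of 32 past the threshold, and edgeR gave none at an unadjusted p under 0.05 over all libraries. MHC class II had 1 of 11, H2-DMb1 (39.3 to 18.2 CPM), the butyrophilin-like list 1 of 4, Btnl6, which fell from 285 ± 73.7 to 175 ± 25.9 CPM without overlap, and the interferon list 1 of 36, Oasl1, which rose from 12.6 ± 6.41 to 25.6 ± 3.44 CPM.

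Lists of metal, lipid and drug handling held 0 to 3 calls each. Of 22 zinc and metal genes 3 passed (13.6%): the zinc transporters Slc39a7 and Slc30a9 rose by 0.53 and 0.55 on the log2 scale, and metallothionein Mt2 fell. Mt2 was at 276 CPM in control 5 and between 15.2 and 40.6 CPM in the other controls, against 7.21 to 45.7 CPM at 5 ppm. Mvd of cholesterol synthesis rose from 0.151 to 2.52 CPM, the lipid sensor Ppard from 177 ± 41.3 to 269 ± 22.5 CPM, and the exporter Abcg2 from 27.1 ± 16.4 to 53 ± 22.6 CPM, with another of its probes at 13.8 and 10.9 CPM. The other probes of Ppard (41.7 and 48.4 CPM, 10.1 and 8.89 CPM) and of Slc39a7 (36.0 and 36.7 CPM), control and then 5 ppm, did not pass. Pck1, an enzyme of gluconeogenesis that adipocytes and enterocytes also express, was at 265, 393, 264, 120 and 296 CPM in the controls and at 27.4, 49.8, 102, 95.3 and 248 CPM at 5 ppm, and it fell. Of olfactory and vomeronasal receptor genes 5 of 106 passed (4.72%, beside 5.62% of all genes, not matched for abundance), all higher. Iron handling had 0 of 16 past the threshold, with 1 higher at an unadjusted p under 0.05 by edgeR over all libraries.

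Cell type markers overlapped between the groups in all 19 lists. Intestinal stem cell markers summed to 1273 ± 176 CPM in the controls and 1449 ± 159 CPM at 5 ppm, Paneth cell markers to 17808 ± 7436 and 21557 ± 5452 CPM, and B and plasma cell markers to 11622 ± 3518 and 12242 ± 3399 CPM. The sum of the adipocyte list was lower at 5 ppm (74.4 to 287 CPM) than in the controls (166 to 431 CPM). Mouse 246 and control 7 were in the range of the other group. By the values above, Pck1, which enterocytes also express, made up most of that sum in every control and in mouse 246. Of 3 members tested in the 90-day crypt fit Pck1 alone passed, so the lower sum is not a reading of adipocytes. The acinar list had a median log2 fold change of -2.43 in the 90-day crypt fit over 24 tested genes, and in the fit of all libraries the median was -2.44, or 0.03 without control 5. Zg16, a goblet cell lectin also made by acinar cells, was at 6318 CPM in control 5 and between 1031 and 1682 CPM in the other controls, and its fall (to 1270 ± 108 CPM) did not hold without mice 5 and 7. Within the marker lists, Apob of the enterocyte list fell by both of its probes, the more abundant from 160 ± 59.4 to 76.6 ± 14.7 CPM. Smooth muscle myosin Myh11 fell from 277 ± 34.9 to 170 ± 49.5 CPM. They were among 2 of 23 enterocyte markers (8.70%) and 1 of 13 smooth muscle markers (7.69%) that passed, all lower. The sums of these lists did not fall. Enterocyte markers summed to 51046 ± 10484 CPM in the controls and 58104 ± 8182 CPM at 5 ppm, and smooth muscle markers to 5024 ± 918 and 5222 ± 1210 CPM.

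Immunoglobulin genes other than the V segments did not pass: Igkc, the kappa constant region, was at 4460 and 6015 CPM (adjusted p = 0.35), Igha, the IgA heavy chain, at 5737 ± 2785 and 3909 ± 621 CPM (adjusted p = 0.12), and Jchain at 1172 ± 343 and 2030 ± 835 CPM (adjusted p = 0.12), all by edgeR in the 90-day crypt libraries. Of 137 variable segments tested in that fit 4 passed (2.92%, beside 5.62% of all genes, not matched for abundance), all higher: Igkv8-18, Igkv8-26, Ighv5-12 and Ighv2-3. The abundant Igkv8-30 was at 385 CPM in controls and 667 CPM at 5 ppm and did not pass.

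Of the 6 crypt markers that the study named, 1 passed, Defa5. Lyz1, Paneth cell lysozyme, was at 2364 ± 1133 CPM in the controls and 2119 ± 503 CPM at 5 ppm, the matrix metalloproteinase Mmp7 at 366 ± 121 and 483 ± 151 CPM, the replication clamp gene Pcna at 115 ± 34.4 and 109 ± 18.8 CPM, and the receptor Ephb2 at 54.6 ± 16.9 and 80.0 ± 6.91 CPM, and none of them passed. Defa22, at 5097 ± 2155 and 7169 ± 2098 CPM, did not pass either. Defa5, another Paneth cell defensin, was far lower in level, 47.3, 18.3, 13.9, 10.8 and 6.22 CPM in the controls and 13.4, 6.25, 5.45, 2.55 and 10.3 CPM at 5 ppm, and fell (log2 fold change -1.36 ± 0.42 SE, adjusted p = 0.068, edgeR, 90-day crypt libraries). In 3 exposed libraries it lay within the control range, and defensins share long stretches of sequence, which leaves the split of counts among them uncertain. The villus markers Klf4 (17.4 ± 9.92 and 25.8 ± 9.38 CPM) and Vil1 (4678 ± 1093 and 4730 ± 805 CPM) did not pass. Cd44, a Wnt target of the stem cell list, rose by its most abundant probe from 65.1 ± 5.06 to 116 ± 35 CPM and fell by another, from 67.9 to 41.2 CPM (adjusted p = 0.041, edgeR, 90-day crypt libraries).

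DESeq2, the tool of the study's own processing, called 12 genes in the same contrast over all libraries, 11 higher and 1 lower. Of these, 11 were at 0 in every library of 1 group and had at most 20 counts in any of the 10 libraries. Egr3, an immediate early transcription factor, had counts of 4, 8, 0, 6 and 20 in mice 241, 243, 244, 245 and 246 and 0 in all controls. Slc5a8, a monocarboxylate carrier, had 3, 0, 15, 16 and 7 counts and again 0 in all controls, and Reg2 had 3 counts each in controls 5 and 7 and 0 elsewhere. The B cell genes Pax5, Ms4a1, Fcer2a, Cxcr5 and Ighd had counts above 0 in 1 to 3 exposed mice each and in no control. In edgeR none of these 11 passed over all libraries, and Egr3 passed in the 90-day crypt libraries (adjusted p = 0.096, edgeR). The twelfth, Gm2022, was well counted: 2.91, 5.18, 4.08, 11.4 and 0 CPM in the controls and 19.9, 18.5, 10.9, 26.8 and 22.3 CPM at 5 ppm, with exposed mouse 244 below control 7 and the others above. It passed in the 90-day crypt libraries too (adjusted p = 0.0074, edgeR).

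Other genes that the study had named for low concentrations gave no call by their most abundant probes. Ctnnd1, a catenin of cell junctions, was at 1574 ± 282 CPM in the controls and 1639 ± 281 CPM at 5 ppm. Saa1, Slc10a2, Muc6 and Ppy were below 10 CPM in every library, with groups that overlapped, and the most abundant Slc34a2 probe was at 0 in all 10. Another Slc34a2 probe was among the DESeq2 calls described above, higher at 5 ppm (adjusted p = 0.0044, DESeq2 over all libraries). That probe had 3 and 6 counts in mice 241 and 246 and 0 in the rest of these libraries. It did not pass in edgeR over all libraries (adjusted p = 0.83).

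Concentrations around 5 ppm placed these genes on a curve. Each comparison below was made against the same 5 control libraries in the 90-day crypt fit, so the counts are not independent of each other. From the lowest concentration, 0.1 ppm, through 1.4, 5, 20 and 60 to 180 ppm, 2, 27, 980, 2256, 5898 and 4197 genes passed. The 498 genes that rose at 5 ppm had median log2 fold changes of 0.44, 0.30, 0.80, 0.78, 1.35 and 0.85 in the same order. The 263 that fell had -0.48, -0.29, -1.0, -0.81, -1.15 and -0.76. The values at 5 ppm are those the genes were chosen by, and the shared controls enter every value. Lias was at 11.3 ± 4.84 CPM at 0 ppm, then at 31.3 ± 10.3, 28.2 ± 8.37, 39.2 ± 10.2 and 34.0 ± 8.83 CPM from 0.1 to 20 ppm, so that the control group stood lowest. H2-D1 went from 64.8 ± 17.2 through 52.0 ± 16.5, 45.9 ± 9.25 and 28.4 ± 5.09 to 24.4 ± 9.59 CPM over the same concentrations.

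**Figure D3:**
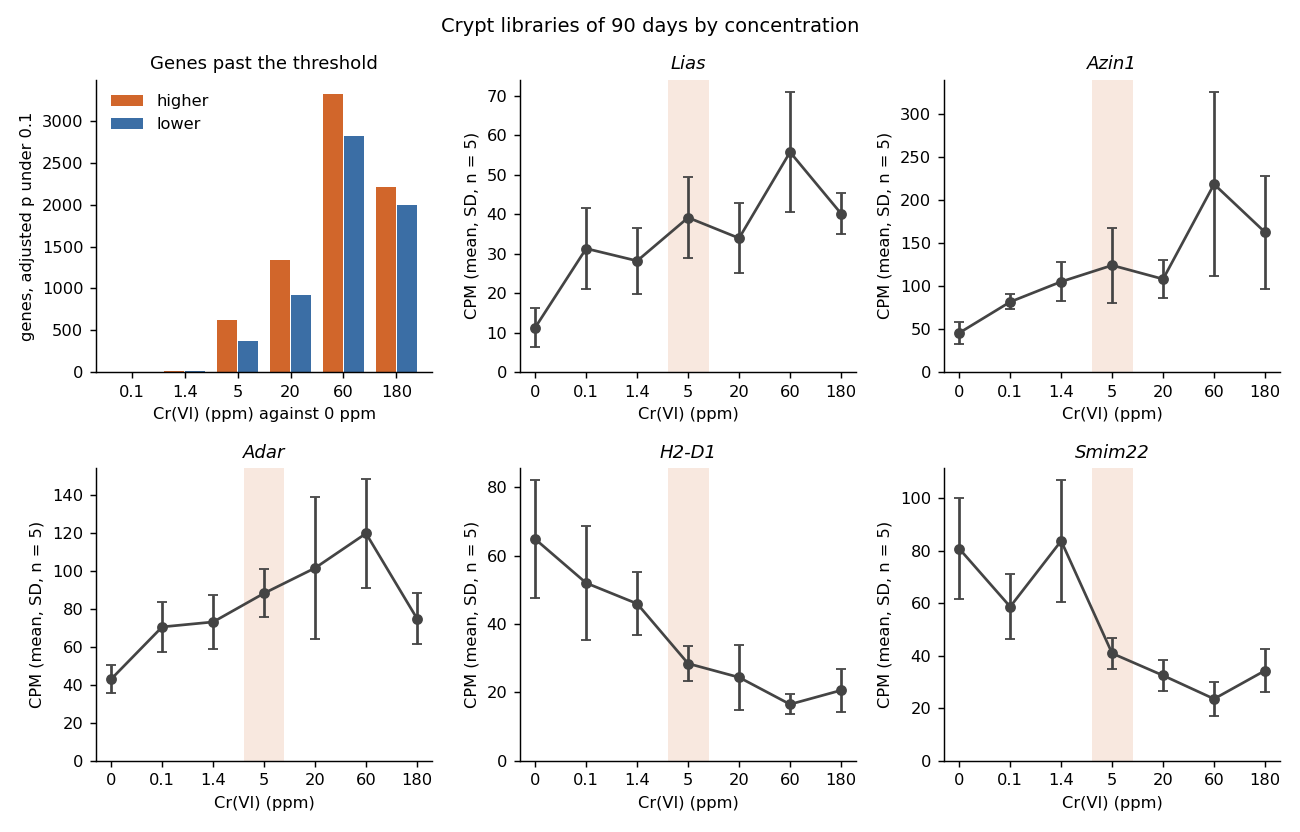
Left, top: genes past the threshold against 0 ppm in the 90-day crypt fit by concentration (bars from 0; orange higher, blue lower). Other panels: mean CPM and SD (n = 5) of 5 genes against Cr(VI) in ppm, evenly spaced categories, with 5 ppm shaded; Lias and Azin1 are already above the control mean at 0.1 ppm, and Smim22 is at 83.7 CPM at 1.4 ppm and 40.9 CPM at 5 ppm.

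Comparisons that leave out the controls differed. Between 5 ppm and 0.1 ppm no probe of 19166 passed (0%), by edgeR in the 90-day crypt libraries, with 1502 at an unadjusted p under 0.05. Between 5 ppm and 1.4 ppm 554 probes passed (2.89%), among them Smim22 (log2 difference -1.07), Rdh16f2 (-2.45), Apob (-1.11), Txn1 (-0.90), Ccar1 (0.70) and Igkv8-18 (3.39). Both of these contrasts were added after the data had been seen. Between 20 ppm and 5 ppm, 3 probes passed in the fit of all libraries (0.0114%) and 29 in the 90-day crypt libraries (0.151%). Krt12, a keratin, was at 3.77 ± 1.47 CPM at 5 ppm and 27.0 ± 8.50 CPM at 20 ppm, and the receptor tyrosine kinase Epha2 at 91.1 ± 7.46 and 245 ± 59.7 CPM. Gzma, a granzyme of cytotoxic and intraepithelial lymphocytes, was lower at 20 ppm, at 144 ± 34.9 and 41.3 ± 14.4 CPM (adjusted p = 0.050 for each of the 3, edgeR's quasi-likelihood test over all libraries). Without any 1 of the 5 ppm libraries, or without 20 ppm replicate 2 or 3, the count was 0, and it was 1 without 20 ppm replicate 1. At 5 ppm all 3 were near their control means of 3.92, 83.0 and 148 CPM. Pck1, which fell at 5 ppm, was lower again at 20 ppm in the 90-day crypt fit (log2 difference -1.92, adjusted p = 0.025, edgeR).

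The villus of the same mice, in other libraries (4 at 0 ppm, 5 at 5 ppm), had the same sign for most of these genes. Of the 761 genes called in the crypt, 693 (91.1%) had the same sign in the villus and 363 were called there with the same sign, 1 with the opposite. Of those that rose in the crypt 92.6% were positive in the villus, and of those that fell 88.2% were negative there. Of the 13546 genes from which the 761 came, 60.6% were positive in the villus and 15.9% were called there (11.9% of 19020 genes in the fit of all libraries, edgeR). Crypt and villus of 1 mouse are not independent: their deviations from the group means correlated above 0.1 in 7 of 9 mice, and the part of this in the shared signs was not tested. Crypt libraries also held villus enterocyte markers, at 34112 to 64204 CPM, and the part of villus tissue left in them was not tested. With the villus enterocyte level as covariate in the 90-day crypt fit, 725 genes passed, of which 701 were among the 980. H2-D1 was at 221, 191, 218 and 135 CPM in the control villi of mice 3, 5, 6 and 7. It was at 94.7, 56.5, 45.8, 19.9 and 30.7 CPM at 5 ppm, without overlap (log2 fold change -1.91, adjusted p = 1.3e-04, edgeR's quasi-likelihood test over all libraries). By the same villus test Smim22 was lower (154 ± 57.9 and 46.2 ± 16.6 CPM), as was Apob (671 ± 238 and 175 ± 73.2 CPM). Adar (57.4 ± 24.6 and 131 ± 30.1 CPM) and Apc (24.9 ± 12.3 and 124 ± 63.9 CPM) were higher, and all 4 passed the threshold. Igkv8-18 was at 5.98, 0, 8.43 and 0 CPM in control villi and at 8.27, 112, 37.0, 22.9 and 3.37 CPM at 5 ppm. Mouse 243 held the highest villus value and mouse 246 the lowest of the exposed, as mouse 246 did in the crypt.

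A test of the difference between the compartments' effects called no probe of 26365 (0%) by edgeR over all libraries, with 2053 at an unadjusted p under 0.05. The count was 181 in DESeq2, 11 in the older form of edgeR's fit, and 40 with the mouse as a block (1 positive and 39 negative differences, crypt minus villus), since crypt and villus came from the same animals. The smallest p belonged to Tut1, Abhd17b and Robo1, each with an adjusted p of 0.29 (edgeR), all 3 higher in villi at 5 ppm than in control villi. Abhd17b was at 115 ± 29.6 and 153 ± 42.3 CPM in the crypt and at 58.5 ± 23.1 and 208 ± 43.1 CPM in the villus. Control villi had fewer counts (1667014 to 2678299) and fewer probes detected (13091 to 15835) than exposed villi (1991023 to 4406006 and 17172 to 21527), and the part of this in the villus values was not tested.

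In the crypt after 7 days of 5 ppm, in other mice with their own controls (5 and 5), 4 probes passed, 0.0152% of those tested by edgeR over all libraries, 1 higher and 3 lower. Of the 761 genes called at 90 days, 204 (26.8%) had the same sign at 7 days. Of those that rose at 90 days 23.5% were positive at 7 days, beside 48.5% of all tested genes. Of those that fell 33.1% were negative at 7 days. The median log2 fold change at 7 days was -0.26 for the genes that rose at 90 days and 0.19 for those that fell. Adar was at 85.7 ± 16.1 CPM in 7-day controls and 68.4 ± 9.71 CPM at 5 ppm, Lias at 24.9 ± 15 and 22.3 ± 13.3 CPM, and H2-D1 at 62.9 ± 39.6 and 58.3 ± 18.4 CPM.

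The difference between the effects at 90 and 7 days was called for 3 probes (0.0114%), by edgeR over all libraries, each with adjusted p = 0.095. Banp, a nuclear matrix protein that binds unmethylated CpG motifs, was at 63.4 ± 12.4 and 92.3 ± 15.7 CPM at 90 days and at 102 ± 15 and 48.9 ± 13.3 CPM at 7 days, each time control and then 5 ppm. Bag3, a co-chaperone, was by its second probe at 100 ± 38.3 and 163 ± 49.0 CPM at 90 days and at 145 ± 57.5 and 62.5 ± 29.6 CPM at 7 days. Ugt2b5, a glucuronosyltransferase, was by its second probe at 0 to 0.190 CPM in the 7-day controls and at 6.93 to 20.0 CPM after 7 days of 5 ppm, with no such gap at 90 days. Among the 7-day controls, the crypt library of mouse 49 had Paneth cell markers at 3236 CPM and enterocyte markers at 91060 CPM, outside the 12522 to 41950 CPM and 36628 to 51992 CPM of the other 4. The villus library of mouse 48 had them at 25376 and 58022 CPM. Without these mice the contrast called 0 probes, against 3. The count ran from 0 to 273 without single libraries, with 273 without the 7-day control replicate 5, 66 without 7-day 5 ppm replicate 1, 24 without control 8 and 5 without mouse 245.

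**Figure D4:**
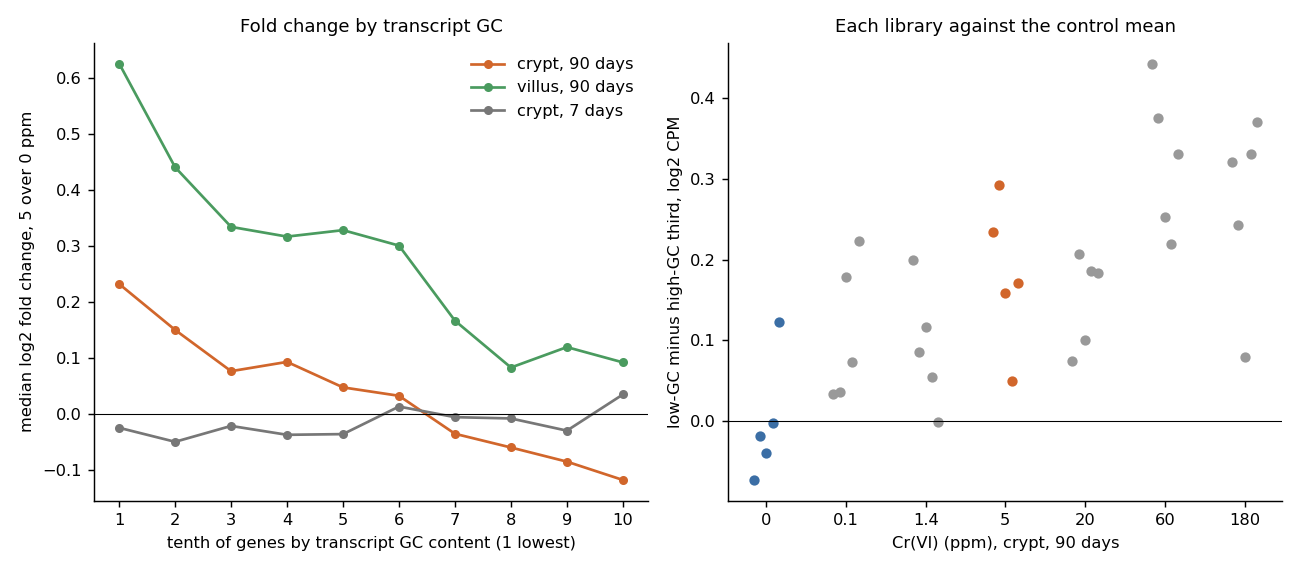
Left: median log2 fold change at 5 ppm over 0 ppm in 10 equal steps of transcript GC content, for the crypt at 90 days (orange), villus at 90 days (green) and crypt at 7 days (grey); it goes from 0.23 to -0.12 in the crypt at 90 days. Right: low-GC minus high-GC log2 CPM of each 90-day crypt library relative to the control mean, by concentration; 4 of 5 controls are at or below 0 and all 5 ppm libraries above it.

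Transcript base composition moved with these differences across all genes. Genes that rose had a median transcript GC content of 46.4%, genes that fell 53% and all tested genes 49.9%. Over the tested genes in 10 equal steps of GC content, the median log2 fold change went from 0.23 in the lowest to -0.12 in the highest, from 0.63 to 0.09 in the villus, and showed no such slope in the crypt at 7 days, -0.02 and 0.04. Relative to the control mean, genes of the lowest tertile of GC content exceeded those of the highest by -0.07, -0.02, -0.04, -0.0021 and 0.12 (log2) in controls 3, 5, 6, 7 and 8. At 5 ppm the values were 0.23, 0.29, 0.16, 0.05 and 0.17 in mice 241, 243, 244, 245 and 246. Control 8 lay among the exposed libraries, and mouse 245, which was also inside the control range for Ccar1, N4bp1 and Ndufc2 and below it for Gsr, lay lowest among the exposed. With an offset for GC content Igkv8-18 remained the 1 gene past the threshold over all libraries, and 713 of the 980 genes of the 90-day crypt fit stayed among 865.

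Second probes of the same gene were a further check. For the 304 called genes that had other probes tested, 234 of 415 such probes (56.4%) had the same direction as the most abundant one and 26 passed on their own. For genes not called, the share with the same direction was 52.5% of 5181 probes, of which 224 passed on their own. Probes of 1 gene can read different exons or transcripts, and the part of that in these shares was not tested.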

How the data were processed

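Crypt libraries of 90 days at 5 ppm and 0 ppm (5 and 5) were compared, grouped by the labels. The authors deposited raw read counts per TempO-Seq probe, made per the labels with bcl2fastq 2.17.1.14 and Bowtie (version and build not given in the sources used here), and the study's methods name DESeq2 for its own statistics. Here the deposited counts were scaled by TMM and fitted with edgeR 4.0.16 (R 4.3.3; quasi-likelihood test, Benjamini-Hochberg adjustment, threshold 0.1), once over all 137 libraries and once over the 35 crypt libraries of 90 days. DESeq2 1.42.0 was an alternative. The threshold follows the study. Depth, 2717447 to 6115411 counts per crypt library compared, limits what can be seen in genes of a few counts. Each mouse gave at most 1 library per compartment, so p-values of the 90-day crypt fit measure the spread between mice. The fit of all libraries had no block for the mouse. Its estimate of spread took crypt and villus libraries of 1 mouse as independent.

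A gene was read by its probe of highest total count. Named were genes past the threshold over all libraries, the 8 higher and 8 lower of smallest p without overlap and with a mean of at least 10 CPM, the study's markers and low-concentration genes with Fanci, Trp53 and Hif1a, from each of 54 lists the 2 members of smallest p and the most abundant, the 3 of smallest adjusted p in each other contrast, and the 5 higher and 5 lower of smallest p in the 90-day crypt fit. Some genes that this rule names are not reported here. Other names were chosen after their values were seen. The members and lists were chosen with earlier results of these data known. Scripts were tested on simulated data. Other scalings, filters, covariates, subsets and left-out libraries were tried. The GC offset, the contrasts of 5 ppm with 1.4 and 0.1 ppm, and most alternatives of the 90-day crypt fit were added after seeing the data. Crypt and villus libraries of 1 mouse were paired by the labels. Deviations from group means of the 9 mice with both correlated with r from 0.0048 to 0.52, above 0.1 in 7 of 9, and highest with the own mouse in 6. Sequences and coordinates came from GENCODE M21 (GRCm38).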

Additional observations from a re-analysis of the deposited data

Results flagged for a closer look

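In groups of 5 libraries, a library far from the other 4 was looked for by Dixon's criterion, which chance meets in about 1 in 20 groups. Among the controls, mouse 5 stood apart in the summed CPM of acinar markers (283615) and goblet markers (10421), and in Cpa1 (34373 CPM), Gp2 (942 CPM), Zg16 (6318 CPM), Nupr1 (200.3 CPM), Mt2 (276 CPM), Ppy (8.73 CPM) and Hbb-bt (0.819 CPM). Control 8 stood apart in the summed CPM of stem cell markers (966, low), in Olfm4 (157 CPM) and Pcna (54.7 CPM), both low, and in Abcg2 (56.0 CPM) and Cidec (13.1 CPM), both high. Control 3 was low in Cd74 (259 CPM) and H2-K1 (290.0 CPM) and high in Eng (33.0 CPM), Rdh16f2 (33.7 CPM) and Reg3a (59.2 CPM). Control 6 was high in Igkv8-18 (2.97 CPM) and Igkv8-30 (717 CPM), and control 7 in Ephb2 (83.6 CPM) and Trav6n-6 (1.16 CPM).

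At 5 ppm, mouse 245 was low in H2afy (165 CPM) and N4bp1 (32.1 CPM) and high in C1qa (11 CPM). Mouse 244 was low in Akr1a1 (93.9 CPM) and Tek (4.87 CPM) and high in Ppy (9.93 CPM). Mouse 243 was high in Banp (119.8 CPM) and Ephb2 (92.0 CPM) and low in Tslp (1.51 CPM). Mouse 241 was high in Slc11a2 (298 CPM), and mouse 246 in the summed CPM of adipocyte markers (287), most of which was Pck1.

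The effect of 5 ppm differed between 90 and 7 days for Ugt2b5 (log2 difference -7.19), Bag3 (1.96) and Banp (1.61), each with adjusted p = 0.095 by edgeR's quasi-likelihood test of the difference itself.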

How the results depend on the processing

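The number of probes or genes past the threshold changed with the fit. For 5 ppm against 0 ppm at 90 days, 1 gene over all libraries became 12 in DESeq2, 1078 in DESeq2 on the 90-day crypt libraries, 980 in edgeR on those, 38 on the 2 groups alone, 2 on all crypt libraries and 0 in the older form of the fit, and was 1 to 2 without single libraries. On the 90-day crypt libraries the 980 genes became 450 at an adjusted p under 0.05, 1966 without mice 5 and 7, and 254 to 1684 without single libraries. They became 725 with the villus enterocyte level as covariate and 1057 with the pancreatic acinar level as covariate. Without mice 5 and 7 the log2 fold changes of Nupr1 and Zg16 turned to 0.51 and 0.067. For crypt against villus, 0 became 181 in DESeq2, 11 in the older form, 40 with the mouse as a replicate block and 0 to 1 without single libraries. For 90 against 7 days, 3 became 184 in DESeq2, 20 with DESeq2 size factors, 1 in the older form, 0 with no filter beyond 1 count, 0 on the groups of the comparison alone, 0 without mice 48 and 49, and 0 to 273 without single libraries. For 20 ppm against 5 ppm, 3 became 14 in DESeq2, 0 in the older form, 84 on the groups alone and 0 to 2 without single libraries. The subsets use fewer samples, and otherwise the cause was not tested. Of values of named genes in the 90-day crypt fit under alternatives, 2488 kept direction and side of the threshold, 173 no longer passed, 111 newly passed and 2 reversed. Depth limits genes of a few counts.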
